A study of Mus musculus with 10 samples.

Results

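The core cardiac transcription factors examined here were Hand1, Hand2, Gata4, Gata5, Gata6, Nkx2-5, Mef2c, Isl1, Tbx5 and Tbx20. They were chosen by gene symbol, as probes whose RefSeq accession maps to one of these 10 symbols, out of 22911 genes with a named probe. Their 16 probes were read in heart tissue of C57BL/6N mice, on 4 arrays of the right ventricle (RV), 3 of the left ventricle (LV) and 3 of the ventricular septum, 1 RNA sample per single-colour Agilent array. No treatment, operation or altered allele is given for these samples, all of which share the strain and the preparation, and the age and sex of the mice were not given in the sources used here. Hearts were perfused with cold saline, frozen and powdered, so each sample holds all cell types of the wall. The series states that different individuals were used for each experiment, but the sources do not say whether regions with the same number came from the same heart. In such bulk tissue, fewer cells of a type and less RNA per cell cannot be told apart.

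The 10 genes encode DNA-binding proteins that build and maintain the heart. GATA factors, the homeodomain protein Nkx2-5, the MADS-box protein Mef2c and the T-box proteins Tbx5 and Tbx20 bind enhancers of contractile and natriuretic peptide genes together, and mutations in several of them cause congenital heart defects. Hand1 and Hand2 are basic helix-loop-helix proteins known for their left and right ventricular roles in the embryo, where the first and second heart fields give rise mainly to the left and right ventricle, and Isl1 marks progenitors of the second field.

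Because these proteins bind each other's regulatory regions, the sequence before the start of each gene was searched for their own motifs. RefSeq promoter entries (build GRCm38.p6) were matched for 6 of the 10 genes, Hand2, Gata5, Nkx2-5, Mef2c, Isl1 and Tbx20, as 8 windows of 250 bases. The motifs were AGATAA for GATA factors, the E-box CATCTG for Hand proteins, TNAAGTG for Nkx2-5, AGGTGT for T-box proteins and TAAAAATA for Mef2c, each on both strands. They occurred in 9.99%, 14.4%, 10.1%, 11.8% and 2.45% of 32851 promoters of the same length. Hand2 held both an E-box, with its first base at position -246 from the start, and a GATA motif on the reverse strand, with its first base at -172. One Mef2c window held a T-box motif and another held an E-box, and no matches overlapped. The windows of Gata5, Nkx2-5, Isl1 and Tbx20 held none of the 5 motifs, which says only that these letters are not in these windows. The sequences shown are those of Hand2 (chr8:57320733-57320982, plus strand), which held 2 motifs, and of Gata5 (chr2:180334680-180334929, minus strand) and Nkx2-5 (chr17:26841566-26841815, minus strand), whose levels differed most by region among the genes with an entry. They run 5′ to 3′ up to the base before the start, and capitals mark matches to the letters searched. Letters that differ from a motif, such as tgataa in the Hand2 window, were not searched and are not marked.
Hand2: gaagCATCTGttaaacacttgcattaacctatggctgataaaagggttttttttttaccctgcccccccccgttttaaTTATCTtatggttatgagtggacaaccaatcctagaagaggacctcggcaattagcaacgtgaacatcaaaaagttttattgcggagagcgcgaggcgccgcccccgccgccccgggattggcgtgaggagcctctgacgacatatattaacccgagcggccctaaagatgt
Gata5: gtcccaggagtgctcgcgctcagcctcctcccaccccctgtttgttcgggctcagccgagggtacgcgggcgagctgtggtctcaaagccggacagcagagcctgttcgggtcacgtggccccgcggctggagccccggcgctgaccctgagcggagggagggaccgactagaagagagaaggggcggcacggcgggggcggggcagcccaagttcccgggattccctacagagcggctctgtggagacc
Nkx2-5: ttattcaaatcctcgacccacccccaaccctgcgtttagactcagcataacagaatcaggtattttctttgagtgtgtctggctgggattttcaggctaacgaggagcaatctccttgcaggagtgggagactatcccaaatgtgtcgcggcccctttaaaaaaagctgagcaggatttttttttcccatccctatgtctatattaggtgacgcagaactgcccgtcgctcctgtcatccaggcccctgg

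Levels are given as log2 of the background-subtracted signal minus the array's 75th percentile, so a probe at that percentile reads 0, and differences are between region means on this log2 scale. Between 53.7% and 64.0% of the 59305 spots that were not controls were well above background on an array, and none was saturated. The arrays were scanned on 2 dates, and the arrays of 1 date are called a slide here. The scan date was all that told the slides apart, and the physical slide was not read. Slide 1 held replicates 1 and 2 of every region. Slide 2 held RV arrays 3 and 4, LV array 3 and septum array 3. As a check of the tissue, all 8 cardiomyocyte markers were well above background on all 10 arrays, with a log2 summed signal between 11.62 and 11.90 and no difference called between regions without a block. With the slide as a block, 3 of the 8 were called lower in RV than in LV (Actc1, Ryr2 and Ttn), where 12.5% of all genes were. That fit called 1 lower than in septum (Ttn), where 5.71% of all genes were. Markers of some other cells moved with the regions. With the slide as a block 0 of 5 blood and 0 of 4 autonomic neuron markers tested were called in any pair of regions. Of 7 macrophage markers 2 were then higher in RV than in LV and 0 lower. Of 4 conduction markers tested, 1 was then higher in RV than in LV, and 1 (Cntn2) was lower in RV than in septum. With the slide as a block 4 of 5 adipocyte, 5 of 5 mesothelium and 4 of 7 fibroblast markers were higher in RV than in LV and 0 lower. Of 8 endothelium markers 3 were then higher and 2 lower, and of 8 smooth muscle and pericyte markers 3 were higher and 1 lower. In that fit 8.81% of all genes were higher and 12.5% lower. The counts that follow are from the fit without a block. That fit called 3.14% of all genes higher in RV than in LV and 1.68% higher in RV than in septum. Of 5 adipocyte markers 4 were higher in RV than in LV (log2 summed signal 2.60 to 3.30 on RV, 0.25 to 0.66 on LV and 0.999 to 2.10 on septum arrays). All 5 mesothelium markers with a probe were higher in RV than in the septum (2.62 to 4.34 on RV, 1.56 to 2.64 on LV and -1.87 to 1.26 on septum arrays). Of 7 fibroblast markers 2 were higher in RV than in LV (8.47 to 8.74 on RV, 7.86 to 8.14 on LV and 8.16 to 8.39 on septum arrays). The summed atrial markers were highest on septum array 1, at 9.22, and lay between 5.13 and 7.24 on the RV and LV arrays. Of the 7 atrial markers, 6 were well above background on all 10 arrays and Bmp10 was so on none. Dkk3 exceeded its LV level in RV by 3.08 (limma adjusted p = 0.01), the only 1 of the 6 called in that comparison without a block. The others did not share that rise, with differences of 0.25 (Myl4), 0.51 (Myl7), -0.092 (Sln), -2.21 (Nppa) and 0.33 (Stard10). The part of these other cells in the values that follow was not tested.

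Of the 10 factors, 8 could be tested and 2 lay near background in the ventricular wall. A probe was tested if at least 1 region had it well above background on each of its arrays, and a gene was represented by its brightest probe. Hand1, the factor of left ventricular development, was well above background on 1 of 10 arrays, septum array 1, at -3.78. Isl1, the progenitor marker, was well above background on 0 of 10 arrays by either of its 2 probes. Hand2, Gata4, Gata5, Gata6, Nkx2-5, Mef2c, Tbx5 and Tbx20 were well above background on all 10 arrays.

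None of the 8 tested factors was called different between any pair of regions or among the 3 regions. The test was limma on all 10 arrays with Benjamini-Hochberg adjustment over 30234 probes and a threshold of 0.05. Between RV and LV it called 0 of the 8, where 4.98% of all 14645 genes tested were called. Between RV and septum it called 0 of 8, where 2.7% of all genes were called, and by the test of all 3 regions 0 of 8, where 3.67% were. Between septum and LV it called 0 of 8 and 0% of all genes, with 862 probes at an unadjusted p below 0.05 in that comparison. Arrays of septum and LV did not overlap for 0 of 8, where 7.38% of all genes did not. At an unadjusted p below 0.05 stood 2 of the 8 between RV and LV, Gata4 and Gata5, where 22.8% of all genes did, and 0 in the other pairs (16.3% between RV and septum and 2.9% between septum and LV). The 8 differences between RV and LV lay between -0.42 and -0.0084, with a median of -0.088 against -0.052 over all genes tested. All 8 were below 0 here, but those of Gata6, Mef2c and Tbx20 turned above 0 under quantile normalisation and when scaled to the probes detected on all arrays. Those between RV and septum lay between -0.33 and 0.11 (median -0.062, against -0.038 over all genes) and those between septum and LV between -0.14 and 0.055 (median -0.10, against -0.019). The arrays of RV did not overlap those of LV for 1 of the 8 factors, where 22.5% of all genes did not overlap, and those of septum for 1, where 16% did not.

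The slide mattered to these counts. When the limma model included the slide as a block, 3 of the 8 factors were called lower in RV than in LV, where 21.3% of all genes were called and 12.5% were called lower. Gata4 was then also called lower in RV than in septum (1 of 8, where 11% of all genes were called) and by the test of all 3 regions (1 of 8, where 15.8% were). When the replicate number was the block, 2 of 8 were called between RV and LV (17.9% of all genes), 1 of 8 between RV and septum (8.69%) and 1 of 8 among the 3 regions (10.9%). RV array 4, the only array with its number, had no weight in that fit. No factor was called between septum and LV in any of these fits, where the slide block called 0.0751% of all genes and the replicate block 0%. Each region had arrays on both slides, and the blocked values stand beside each factor whose call they changed.

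**Figure D1:**
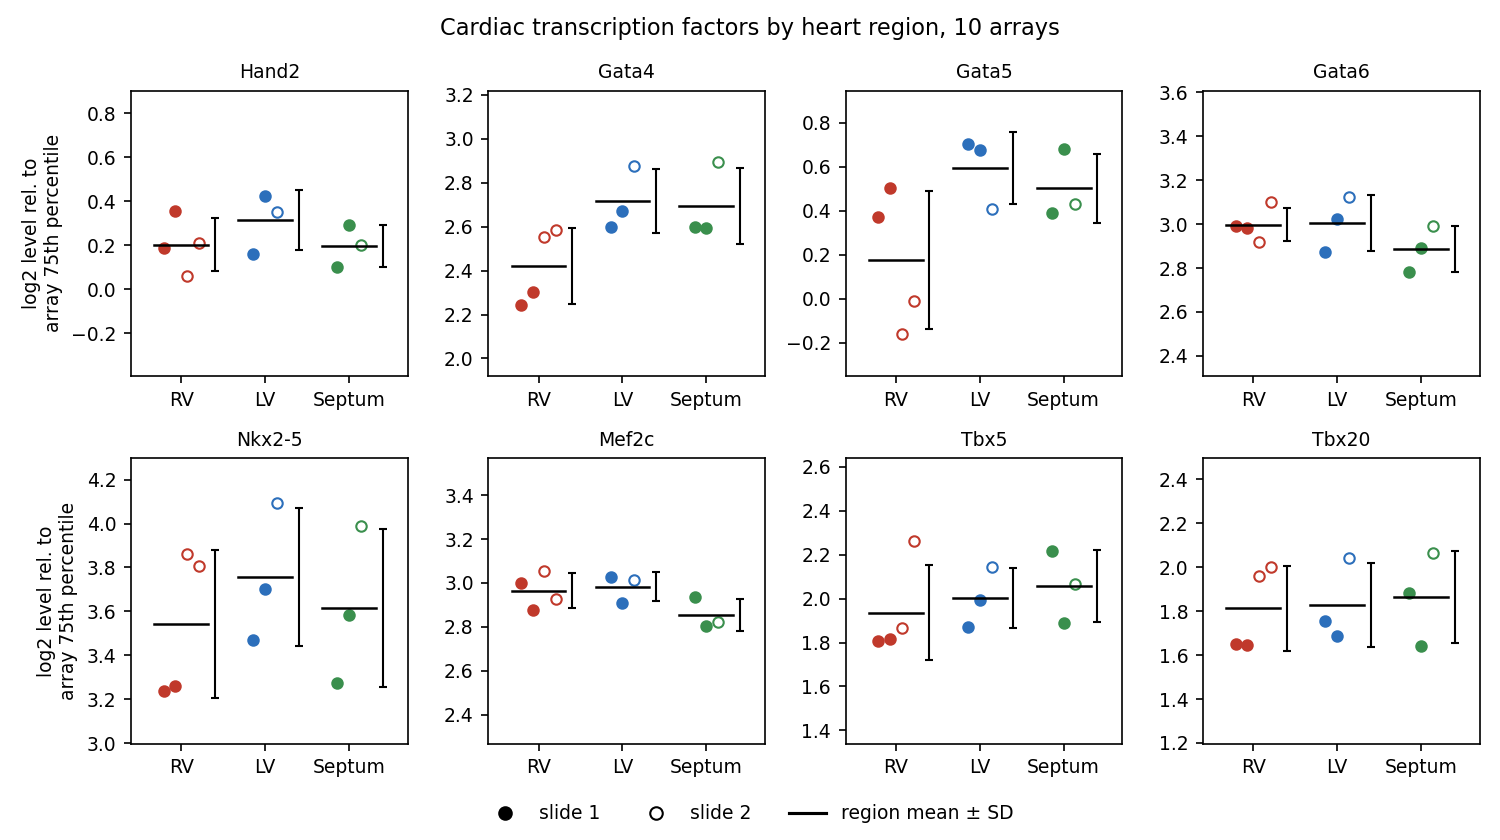
Log2 level, relative to the 75th percentile of the array, of the 8 tested factors on 10 arrays by region, with filled points for slide 1, open points for slide 2, a line for the region mean and a bar for its SD, on axes of equal span. The 4 RV points of Gata4 (2.24 to 2.58) lie below the 6 LV and septum points (2.59 to 2.89), and the points of the other genes overlap.

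**Figure D2:**
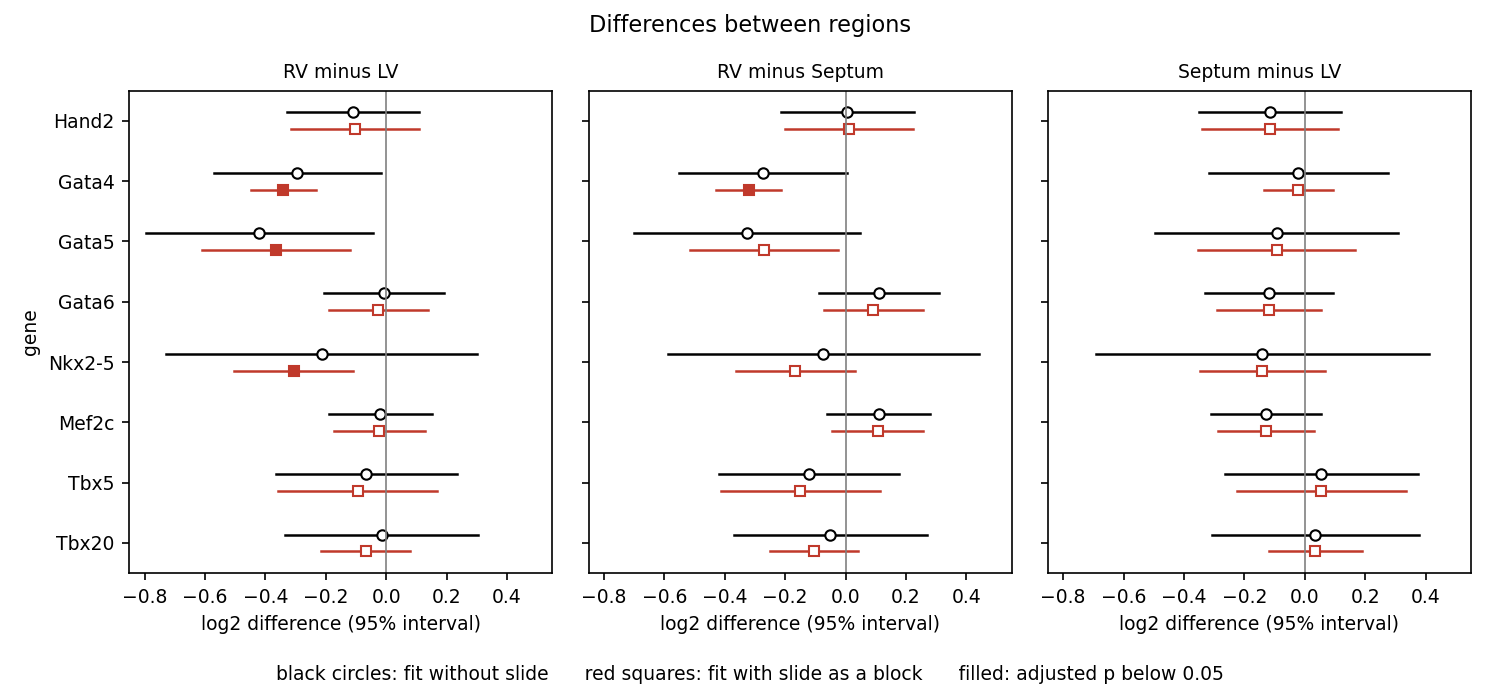
Log2 difference between each pair of regions with its 95% interval for the 8 tested factors, by the limma fit without the slide (black circles) and with the slide as a block (red squares), filled where the adjusted p was below 0.05. With the slide as a block Gata4, Gata5 and Nkx2-5 lie below 0 between RV and LV, at -0.34, -0.36 and -0.31.

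Among the GATA factors, zinc-finger proteins that bind the motif they are named for, Gata4 and Gata5 had the largest differences of RV from LV and Gata6 did not separate the regions. Gata4, which regulates contractile and stress-response genes of cardiomyocytes, stood at 2.24, 2.30, 2.55 and 2.58 on RV arrays 1 to 4. It stood at 2.60, 2.67 and 2.88 on LV arrays 1 to 3 and at 2.60, 2.59 and 2.89 on septum arrays 1 to 3. All RV arrays lay below all LV and septum arrays, and on both slides the RV arrays were the lowest. The mean was 2.42 ± 0.17 (SD, n = 4) in RV, 2.72 ± 0.14 (n = 3) in LV and 2.69 ± 0.17 (n = 3) in septum. The RV mean differed from that of LV by -0.29 (95% interval -0.57 to -0.018, limma adjusted p = 0.225) and from that of septum by -0.27 (-0.55 to 0.0035, adjusted p = 0.362). With the slide as a block they were -0.34 (SE 0.047, adjusted p = 0.00353) and -0.32 (adjusted p = 0.00613), both called. With the replicate block they were -0.35 (adjusted p = 0.0123) and -0.33 (adjusted p = 0.0189), called as well. Within slide 1 alone Gata4 differed by -0.36 between RV and LV and by -0.32 between RV and septum, and within slide 2 by -0.31 and -0.33, none of them called. Septum and LV differed by -0.021 (95% interval -0.32 to 0.27). Its level was 0.30, 0.24 and 0.30 higher on slide 2 than on slide 1 in RV, LV and septum. A second Gata4 probe was well above background on 5 of 10 arrays and was not tested.

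Gata5, known for roles in endocardial and valve development, read 0.37, 0.50, -0.16 and -0.011 on RV arrays 1 to 4, 0.70, 0.67 and 0.41 on LV arrays 1 to 3 and 0.39, 0.68 and 0.43 on septum arrays 1 to 3. The RV arrays of slide 2 were the lowest of the 10, and RV array 2 overlapped LV array 3 and the septum arrays. The mean was 0.18 ± 0.31 (SD, n = 4) in RV, 0.60 ± 0.16 (n = 3) in LV and 0.50 ± 0.16 (n = 3) in septum. The difference was -0.42 between RV and LV (95% interval -0.79 to -0.044, limma adjusted p = 0.203), -0.33 between RV and septum (-0.70 to 0.049, adjusted p = 0.431) and -0.093 between septum and LV (-0.49 to 0.31). Under the slide block RV was called lower than LV (log2 difference -0.36, SE 0.11, adjusted p = 0.0495), just past the threshold, and under the replicate block the value was -0.36 (adjusted p = 0.0918), not called. It was -0.25 within slide 1 and -0.50 within slide 2, neither called. Between RV and septum it was -0.098 within slide 1 and -0.52 within slide 2.

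Gata6, expressed in myocardium and in smooth muscle, read 2.99, 2.98, 2.92 and 3.10 on the RV arrays, 2.87, 3.02 and 3.13 on the LV arrays and 2.78, 2.89 and 2.99 on the septum arrays. The 3 regions overlapped. RV and LV differed by -0.0084 (95% interval -0.21 to 0.19), RV and septum by 0.11 (-0.089 to 0.31) and septum and LV by -0.12 (-0.33 to 0.095), all with a limma adjusted p of 0.661 or above.

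Nkx2-5, the homeodomain factor of the working and conducting myocardium, differed more between slides than between regions. It read 3.24, 3.26, 3.86 and 3.81 on RV arrays 1 to 4, 3.47, 3.70 and 4.09 on LV arrays 1 to 3 and 3.27, 3.58 and 3.99 on septum arrays 1 to 3. On each slide the RV arrays lay below the LV arrays, and below the septum arrays too. Slide 2 exceeded slide 1 by 0.58 in RV, 0.50 in LV and 0.56 in septum. The means were 3.54 ± 0.34 (SD, n = 4), 3.76 ± 0.31 (n = 3) and 3.62 ± 0.36 (n = 3) in RV, LV and septum. RV and LV differed by -0.21 (95% interval -0.73 to 0.30, limma adjusted p = 0.67), RV and septum by -0.074 (-0.59 to 0.44) and septum and LV by -0.14 (-0.69 to 0.41). Under the slide block, RV was called lower than LV (log2 difference -0.31, SE 0.086, adjusted p = 0.0425), and under the replicate block as well (-0.30, adjusted p = 0.0378). Within slide 1 the difference was -0.34 and within slide 2 -0.26, neither called. The difference between RV and septum stayed uncalled with either block, at -0.17 and -0.16.

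Hand2, the Hand factor of the embryonic right ventricle and of the sympathetic lineage, showed little spread between regions. It read 0.19, 0.36, 0.059 and 0.21 on the RV arrays, 0.16, 0.43 and 0.35 on the LV arrays and 0.10, 0.29 and 0.20 on the septum arrays, so all 3 regions overlapped. The mean was 0.20 ± 0.12 (SD, n = 4) in RV, 0.31 ± 0.14 (n = 3) in LV and 0.20 ± 0.096 (n = 3) in septum. The difference was -0.11 between RV and LV (95% interval -0.33 to 0.11), 0.0055 between RV and septum (-0.21 to 0.23) and -0.12 between septum and LV (-0.35 to 0.12). No limma fit called it, with an adjusted p of 0.598 between RV and LV. Of 7 autonomic neuron markers, 4 were well above background on all 10 arrays and 2 on none.

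Mef2c, the MADS-box factor that pairs with GATA and Hand proteins on muscle genes, was measured by 2 tested probes, which did not separate the regions. The brighter read 3.0, 2.88, 3.06 and 2.93 on the RV arrays, 3.03, 2.91 and 3.01 on the LV arrays and 2.94, 2.80 and 2.82 on the septum arrays. RV and LV differed by -0.019 (95% interval -0.19 to 0.15), RV and septum by 0.11 (-0.060 to 0.28) and septum and LV by -0.13 (-0.31 to 0.053), none called by limma. The other probe gave 0.029, 0.15 and -0.12.

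Tbx5, the T-box factor best known for septation and for the left ventricle and atria of the embryo, read 1.81, 1.81, 1.87 and 2.26 on RV arrays 1 to 4. It read 1.87, 1.99 and 2.14 on LV arrays 1 to 3 and 2.22, 1.89 and 2.07 on septum arrays 1 to 3. RV array 4 stood above the other 3 RV arrays, and the regions overlapped. RV and LV differed by -0.066 (95% interval -0.37 to 0.23), RV and septum by -0.12 (-0.42 to 0.18) and septum and LV by 0.055 (-0.27 to 0.38), none called by limma. Septum array 1, the highest of the septum for Tbx5, also had the highest summed atrial markers. Septum array 2 was the lowest of the septum for Tbx5. Myl4 and Sln were higher there than on septum array 3 (5.63 and 4.14 against 3.70 and 0.49), as were Myl7 and Stard10. Nppa was lower there (6.23 against 6.45), as was Dkk3. The part of atrial tissue in the Tbx5 levels was not tested. Without RV array 4 the difference was -0.17 between RV and LV and -0.23 between RV and septum, still not called.

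Tbx20, a T-box factor that keeps the adult myocardial programme, was measured by 4 probes. Of these, 1 that is annotated to another transcript than the brightest probe was higher in RV than in LV. Probe sequences were not at hand, so whether a probe reads only its annotated transcript was not checked. The brightest (transcript NM_194263) read 1.65, 1.64, 1.96 and 2.0 on the RV arrays, 1.75, 1.69 and 2.04 on the LV arrays and 1.88, 1.64 and 2.06 on the septum arrays. The regions overlapped, with differences of -0.015 between RV and LV (95% interval -0.33 to 0.30), -0.050 between RV and septum (-0.37 to 0.27) and 0.035 between septum and LV (-0.31 to 0.38). A second probe annotated to the same transcript gave -0.062, -0.16 and 0.097. Probe A_55_P1976310 (transcript NM_020496) read -1.95, -2.37, -2.18 and -2.26 on the RV arrays, -2.89, -2.70 and -2.92 on the LV arrays and -2.26, -2.72 and -2.63 on the septum arrays. All its RV arrays lay above all its LV arrays, while the septum arrays overlapped both. RV exceeded LV by 0.65 (SE 0.14, 95% interval 0.34 to 0.95, limma adjusted p = 0.0341), the only call among the 12 tested probes of the 10 genes in a comparison where 3.86% of all probes were called. RV and septum differed by 0.35 (adjusted p = 0.292), a comparison where 2.08% of all probes were called, and septum and LV by 0.30 (95% interval -0.026 to 0.63). The RV to LV difference was 0.67 with the slide (adjusted p = 0.0131) and with the replicate number (adjusted p = 0.0265) as a block, 0.64 within slide 1 (adjusted p = 0.152) and 0.70 within slide 2 (adjusted p = 0.0969), neither called.

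That call was not stable. It was lost without RV array 1, 3 or 4 and without LV array 1, 2 or 3, with differences from 0.57 to 0.72 over the fits that left out an array. It was also lost with quantile normalisation (0.62, adjusted p = 0.0536), scaling by the median (0.63, adjusted p = 0.0629), normexp background correction (0.35, adjusted p = 0.067), no filter (adjusted p = 0.139) and the methods' analysis of variance (adjusted p = 0.121). The fourth probe, A_55_P2162503 (transcript NM_001205085), differed by 0.17 between RV and LV and by 0.24 between septum and LV (95% interval 0.060 to 0.42), where all septum arrays lay above all LV arrays, but it was not called. Whether the Tbx20 probes differed from each other in their regional pattern was not tested.

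**Figure D3:**
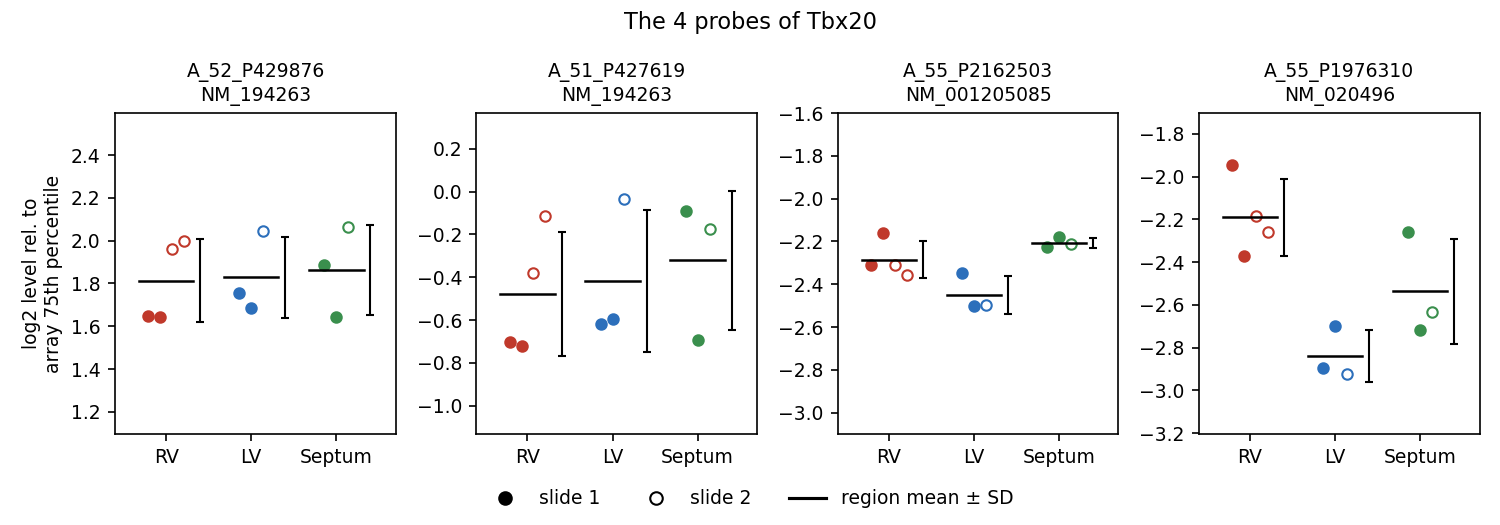
Log2 level, relative to the 75th percentile of the array, of the 4 Tbx20 probes on 10 arrays by region, each panel titled with the probe and its RefSeq transcript, with filled points for slide 1, open points for slide 2 and bars for the mean ± SD. In the last panel the 4 RV points (-2.37 to -1.95) lie above the 3 LV points (-2.92 to -2.70), and in the first panel the regions overlap.

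Partners and relatives of the 10 factors were read from a list of 50 genes, of which 43 were tested. Between RV and LV 4 were higher in RV, where 3.14% of all genes were, and 0 were lower (1.84%), with a median difference of 0.023 against -0.052 over all genes. They included Foxc1, a forkhead factor of the outflow tract and mesenchyme, Gata3, a GATA factor of lymphocytes and neurons, and Tcf21, a helix-loop-helix factor of epicardium and fibroblasts. Foxc1 read 0.66, 0.69, 0.54 and 0.42 on the RV arrays, -0.45, -0.53 and -1.10 on the LV arrays and -0.069, -0.29 and -0.50 on the septum arrays. All RV arrays lay above all others. The difference was 1.27 against LV (SE 0.17, limma adjusted p = 0.00507) and 0.87 against septum (adjusted p = 0.0337). The former was called in all 10 fits that left out an array (1.07 to 1.39), the latter in 3 of them (0.76 to 0.98), lost without RV arrays 1 to 4, LV array 2 or septum arrays 2 or 3. No filter and slide 2 alone ended the call against septum and not that against LV.

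Gata3 differed by 1.17 between RV and LV (SE 0.24, limma adjusted p = 0.0306), a call lost without RV arrays 1, 2 or 4 or LV arrays 1 or 2 (1.05 to 1.39). Its difference was 1.41 within slide 1, called, and 0.70 within slide 2 (adjusted p = 0.306), and the call was also lost with median scaling, no filter and the analysis of variance. Tcf21 was higher in RV by 0.56 against LV (SE 0.10, adjusted p = 0.0208) and by 0.52 against septum (adjusted p = 0.0378). Its first call was lost without RV array 2 or LV arrays 1, 2 or 3 (0.48 to 0.60), and its second was kept only without septum array 1 or RV array 3 (0.45 to 0.59). Both were lost with median scaling, no filter and either slide alone, and the second also with normexp and with only the regions compared. RV also had the higher fibroblast and adipocyte sums given above, and its mesothelium sums lay above those of the septum. The part of these cells in these differences was not tested.

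Between RV and septum the list had 3 higher (1.68% of all genes) and 0 lower genes, with a median of 0.042, and between septum and LV 0 were called by limma, with 2 of 43 at an unadjusted p below 0.05 (2.9% of all genes). Under the slide block 7 of 43 were higher in RV than in LV (8.81% of all genes) and 4 were lower (12.5%), and under the replicate block 7 higher (7.25%) and 5 lower (10.6%). Against septum the slide block called 6 higher (5.34%) and 4 lower (5.71%), and the replicate block 4 higher (4.18%) and 4 lower (4.51%). The 4 lower with the slide were Tbx3, a T-box repressor of the conduction system, at -0.51, Srf, the MADS-box partner of myocardin, at -0.42, Myocd, which encodes myocardin, at -0.46, and Tead1, the effector of Hippo signalling, at -0.48. Without a block these 4 differed by -0.39, -0.35, -0.42 and -0.41 and were not called. The same 4 were lower in RV than in septum with the slide as a block. The 7 higher in RV than in LV with the slide included Foxc1, Gata3 and Tcf21, at 1.33, 1.11 and 0.55.

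Genes that these factors are known to regulate in the heart were read from a list of 25, of which 24 were tested. Between RV and LV 3 were higher in RV (3.14% of all genes) and 2 lower (1.84%), with a median difference of -0.21 against -0.052 over all genes. Higher were Id2, an inhibitor of helix-loop-helix proteins and a target of Tbx5 and Nkx2-5 in the conduction system, Wnt2, a secreted signal, and Sema3c, a guidance cue of the outflow tract. Lower were Slc8a1, the sodium-calcium exchanger, and Tnnc1, cardiac troponin C. Id2 read 1.23, 1.14, 1.17 and 1.32 on the RV arrays, 0.059, 0.010 and -0.080 on the LV arrays and 0.37, 0.12 and 0.19 on the septum arrays. All RV arrays lay above all others. The difference was 1.22 against LV (SE 0.085, limma adjusted p = 0.000585) and 0.99 against septum (adjusted p = 0.00085), and both calls held in all 10 fits that left out an array, while the second was lost on slide 2 alone.

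Wnt2 differed by 1.36 between RV and LV (SE 0.28, limma adjusted p = 0.0301) and was well above background on 4 of 4 RV, 3 of 3 septum and 2 of 3 LV arrays, so it was not tested where all 10 arrays had to pass. The call was lost without RV arrays 1, 2 or 3 or LV arrays 1 or 3 (1.01 to 1.57), and with no filter, slide 2 alone, only the regions compared and the analysis of variance. With normexp the difference was 0.81, still called. Sema3c differed by 0.53 (SE 0.098, adjusted p = 0.0216), a call lost without RV arrays 1, 2 or 4 or LV arrays 2 or 3 (0.45 to 0.60), with median scaling, no filter, either slide alone and the analysis of variance. Slc8a1 was lower in RV, at 0.19, 0.22, -0.012 and 0.070 on the RV arrays against 0.70, 0.57 and 0.60 on LV and 0.68, 0.56 and 0.58 on septum arrays. Its difference was -0.51 from LV (SE 0.082, adjusted p = 0.0127), lost only without LV array 1 among the fits that left out an array (-0.54 to -0.46). From septum it was -0.49 (adjusted p = 0.022), lost without RV array 4 or septum arrays 1, 2 or 3 (-0.52 to -0.44). Tnnc1 differed by -0.38 from LV (adjusted p = 0.0283) and by -0.37 from septum (adjusted p = 0.0427). The first call was kept only without RV array 1 or septum arrays 1 or 3 (-0.42 to -0.33), and the second was lost whichever array was left out (-0.40 to -0.35). The calls of Slc8a1 and Tnnc1 were also lost with no filter and on either slide alone, those of Tnnc1 with the percentile of probes detected on all arrays and with only the regions compared. With only RV and septum compared Slc8a1 lost its call, and median scaling ended that of Tnnc1 against septum. Between RV and septum the list had 1 higher (1.68% of all genes) and 2 lower genes (1.02%), with a median of -0.17, and between septum and LV limma called 0, with 3 of 24 at an unadjusted p below 0.05 (2.9% of all genes).

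Under the slide block, 12 of the 24 target genes were lower in RV than in LV, where 12.5% of all genes were, and 3 were higher (8.81%). Under the replicate block 10 were lower (10.6%) and 3 higher (7.25%). The lower genes under the slide block included the natriuretic peptide genes Nppa (-2.21, adjusted p = 0.0292) and Nppb (-3.95, adjusted p = 0.00123), the stretch-responsive Ankrd1 (-1.20), the ryanodine receptor gene Ryr2 (-0.29) and the structural genes Actc1, Ckm, Des, Xirp1 and Xirp2. Nppa read 5.16, 3.17, 5.41 and 3.86 on the RV arrays, 6.79, 6.55 and 6.48 on the LV arrays and 7.48, 6.23 and 6.45 on the septum arrays. All RV arrays lay below all others, but without the block limma gave a difference of -2.21 from LV with an adjusted p of 0.0504, not called. Nppa is also an atrial marker.

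**Figure D4:**
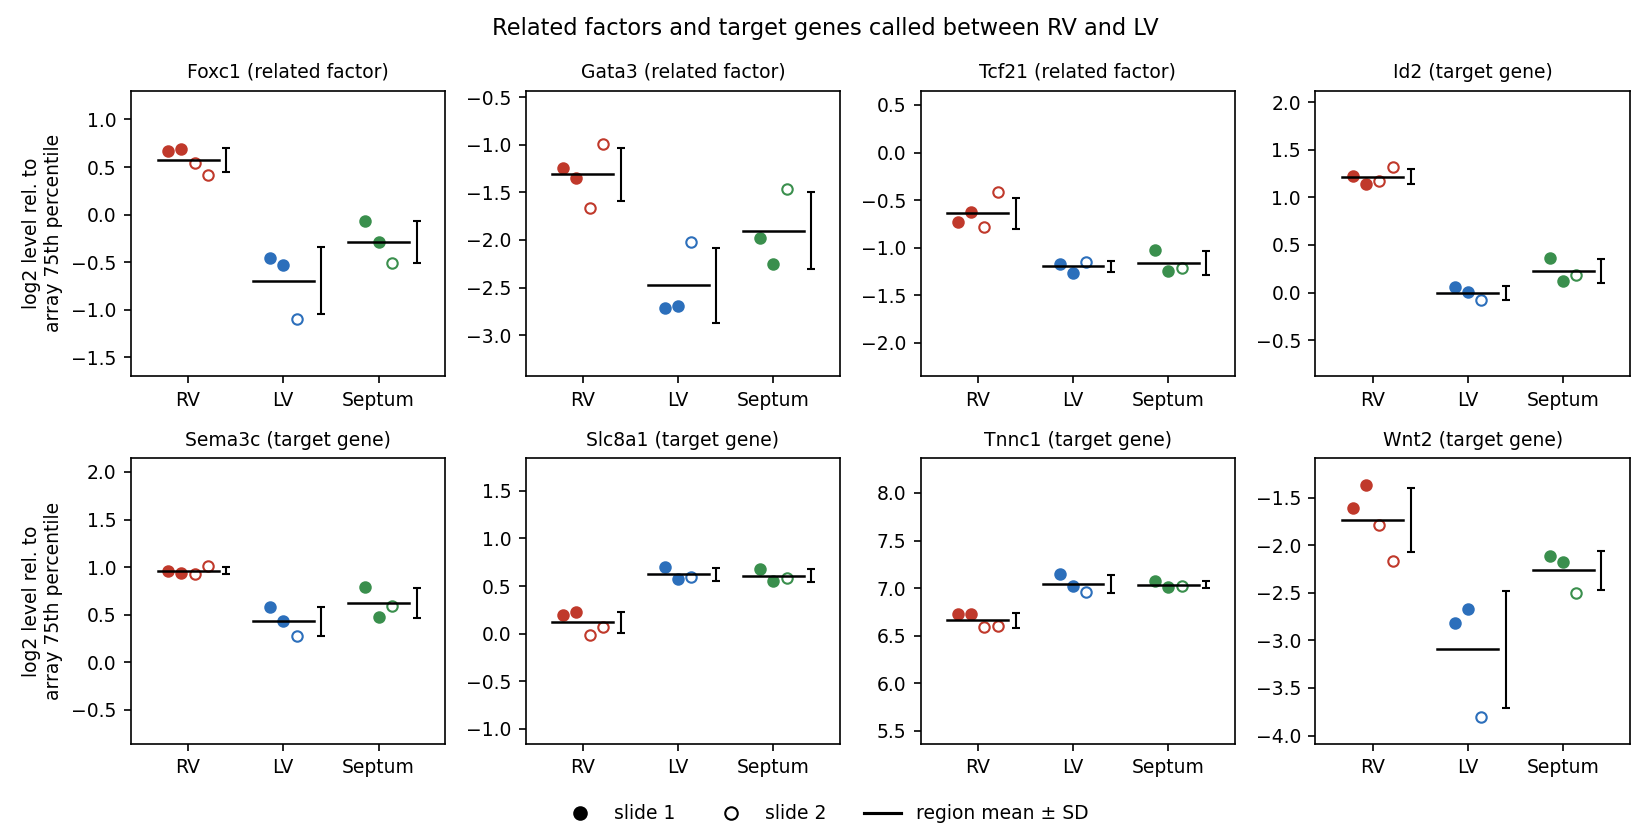
Log2 level, relative to the 75th percentile of the array, on 10 arrays by region for 3 related factors and 5 target genes called between RV and LV by limma, with filled points for slide 1, open points for slide 2 and bars for the mean ± SD, on axes of equal span. Foxc1, Gata3, Tcf21, Id2, Sema3c and Wnt2 have all RV points above all LV points, and Slc8a1 and Tnnc1 have all RV points below them.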

How the data were processed

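The sample titles gave each array's region and number. The authors deposited intensity values from Agilent Feature Extraction 11.5.1.1 (per the file headers), which subtracted background and flagged spots. These had no scaling between arrays, and those of RV array 1 were rounded to fewer digits. They also deposited a table of log2 values, made with GeneSpring. It matched the values computed here apart from a constant per array and served as an alternative.

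Here, control and outlier spots (56 to 128 per array) were dropped, log2 processed signals were averaged per probe and set relative to the array's 75th percentile. Of 56605 probes, 30234 were tested, those that some region had well above background on each of its arrays. Probes were named through RefSeq accessions and a gene table of assembly GRCm38.p6 (32994 probes with 1 symbol). The array design names another build, so gene coordinates are not given, and promoter coordinates are those of the RefSeq table. All 10 arrays entered a model of region means in limma 3.58.1 (R 4.3.3, lmFit and eBayes, two-sided). P-values measure the spread between these samples, which may be technical in part, and the number of arrays limits the precision. On simulated data with 200 of 30175 probes changed between RV and LV, the fit recovered 74 of 100 changed by a log2 of 1 and 97 of 100 changed by 2, with 11 false calls. The simulated noise was independent between arrays, without slide or replicate structure, so false calls where arrays vary together were not measured. Changes as small as those of the factors were not simulated, so their recovery was not measured either.

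All 10 factors are named, and of the 50 related factors and 25 target genes those called (up to 10 with the smallest p), except 1 that is counted but not reported here, and, for the fits with a block, some of those called there. Genes with a similar pattern were to be named only for a factor whose brightest probe was called, so none are. The factors and the gene lists were chosen with earlier results of these data known. Deviations from the region means correlated at 0.36 to 0.64 for the 9 pairs of arrays with the same number, all on the same slide, at 0.09 to 0.58 for the other 8 pairs on the same slide and at -0.56 to -0.21 for the 16 pairs on different slides. Every pair with the same number exceeded 0.1, so the number was also used as a block, and number and slide overlap. Alternatives were quantile, median and other percentile scaling, normexp on median signals (the files hold no mean signal) with an offset of 50, the authors' table, other filters, slide and replicate blocks, single slides, only the regions compared, other probes, each array left out, and the methods' analysis of variance with Tukey's correction in its one-way form, run with Benjamini-Hochberg adjustment. Motifs were searched with Python. No explanation of a difference was tested.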

Additional observations from a re-analysis of the deposited data

Results flagged for a closer look

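The level of Tbx5 on RV array 4, 2.26, lay far from the other RV arrays: the nearest was 1.87 and the farthest 1.81. The gap was 0.867 of the range of the 4 arrays, above the critical value of Dixon's test. It was the only one of 12 tested probes of the factors with such an array among the 4 of RV, the sole region with enough arrays, and by chance the test picks out such an array in about 5% of groups.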

How the results depend on the processing

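No factor was called under the other scalings, the normexp correction, the authors' table, the other filters, single slides, the analysis of variance or any fit without an array, where the counts ran from 0 to 0 in each comparison. With the slide as a block 3, 1 and 1 factors were called between RV and LV, between RV and septum and among the 3 regions, and with the replicate block, which pairs arrays by number, 2, 1 and 1. The replicate block changed no other call of a factor by its brightest probe.

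The 4 related factors called between RV and LV became 2 with median scaling, 1 with no filter, 11 with the slide block, 2 on slide 2 alone, 12 with the replicate block and 2 with the analysis of variance (1 to 4 without an array). The 3 between RV and septum became 0 with no filter, 10 with the slide block, 1 on slide 2, 8 with the replicate block and 1 with only these regions (0 to 3 without an array). The 5 target genes called between RV and LV became 1 with no filter, 15 with the slide block, 1 on slide 2, 13 with the replicate block, 3 with only these regions and 3 with the analysis of variance (2 to 6 without an array). The 3 between RV and septum became 1, 8, 0, 8 and 1 with no filter, the slide block, slide 2, the replicate block and only these regions (1 to 5 without an array). The analysis of variance called 1 target gene between septum and LV, where limma called 0 (0 to 0 without an array, as for related factors). The causes were not tested. Without a filter more probes entered the test, and single slides held fewer arrays. On slide 2 LV and septum had 1 array each, taken to vary like RV.

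Differences near 0 changed sign, none of them called but for a Tbx20 probe. Between RV and LV, Gata6 became 0.067 with quantile normalisation, 0.047 with the percentile of probes detected on all arrays, 0.025 with normexp and 0.040 on slide 1. Mef2c became 0.054 and 0.036 with the first 2 of these settings and 0.029 by its other probe. Tbx20 became 0.028 and 0.040 with them, and 0.17 and 0.65 by its probes A_55_P2162503 and A_55_P1976310, the latter called, and 0.35 against septum by A_55_P1976310. Between septum and LV, Gata4 became 0.00024 with that percentile and 0.017 on slide 2, Gata5 0.025 on slide 2, Tbx5 -0.0099 with median scaling and -0.076 on slide 2, and Tbx20 -0.030 with median scaling. Hand2 became -0.066 between RV and septum on slide 2. Without single arrays the differences that changed sign ran, between RV and LV, from -0.076 to 0.051 for Gata6, -0.057 to 0.0099 for Mef2c, -0.17 to 0.0043 for Tbx5 and -0.086 to 0.093 for Tbx20. Between RV and septum they ran from -0.045 to 0.054 for Hand2, -0.24 to 0.11 for Nkx2-5 and -0.16 to 0.050 for Tbx20, and between septum and LV from -0.12 to 0.060 for Gata4, -0.33 to 0.031 for Nkx2-5, -0.025 to 0.14 for Tbx5 and -0.064 to 0.15 for Tbx20. Of 552 values of the 8 factors under other settings, 504 kept their direction and side of the threshold, 7 came past it and 41 changed sign. Of 342 values of the called list genes, 224 stayed called, 118 lost the call and 0 changed sign. Hand1 and Isl1 lay too near background for a comparison.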
